A study of Rattus norvegicus with 16 samples.

Results

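The synaptic vesicle release machinery is the set of proteins that tether, prime and fuse transmitter-filled vesicles at the nerve terminal. Its members were taken by gene name: every synaptotagmin (Syt), syntaxin (Stx), Snap, Vamp, synapsin (Syn), SV2, RIM (Rims), complexin (Cplx) and syntaxin-binding protein (Stxbp) gene on a rat whole-genome expression array. The names matched 64 of the 26583 named genes, carried by 75 probes, and each gene was read from the probe with the highest mean intensity. One match is not a fusion protein: Snap91 encodes a clathrin adaptor that works in vesicle retrieval, and was caught by its symbol alone.

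At a terminal, synapsins hold vesicles in a reserve cluster, and RIM proteins dock them at the active zone beside calcium channels. Vesicular Vamp1 or Vamp2 then zips together with Snap25 and a plasma-membrane syntaxin such as Stx1a into the SNARE complex, a step that complexins clamp. Calcium bound by Syt1, or by its fast relatives, triggers fusion. Many further syntaxins, Vamps and Snaps serve the same kind of fusion at the Golgi, endosomes and the cell surface of every cell.

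The arrays measured total RNA of the whole hippocampus 24 hours after injury, or at the matching time without one, in adult male Sprague-Dawley rats, with 1 rat on each of 16 arrays. Naive rats (n = 3) were untreated, and SHAM rats (n = 2) were anesthetized and surgically prepared without an injury. TBI rats (n = 3) received a severe fluid-percussion injury of the brain. The other groups received the same injury followed by PMI-006 at 250 mg/kg (TBI+PMI-006, n = 3) or JM6 at 400 mg/kg (TBI+JM6, n = 3), both by gavage, or by estradiol at 33 µg/kg (TBI+E2, labelled E33, n = 2). The labels give a subcutaneous route for estradiol and the methods an intraperitoneal one. The sources used here name no vehicle for the untreated TBI rats of the arrays, and uninjured rats given a drug were not analysed here. The question put to the data is which release genes differed after injury, and how the treated injured rats compared with the untreated ones.

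The arrays fell into 2 scanning sessions of 8 arrays and 4 slides of 4 arrays. The first session held all Naive, SHAM and TBI arrays, and the second held all arrays of treated rats, so a treatment and its session cannot be told apart. In the first session 16274 to 18239 probes per array were well above background, and in the second 20256 to 24979. SHAM lay on slide 1 with Naive 1 and 2, and TBI lay on slide 2 with Naive 3, so SHAM and TBI shared no slide and only Naive bridges them. Of 30367 probes, 22823 passed a filter on dim signal (well above background on all arrays of some group) and were tested. The neuron markers that define the tissue (Rbfox3, Tubb3, Nefl, Map2 and others, 10 genes) were present, with at least 9 of the 10 above background on every array of a group. Rbfox3 itself was above background on 7 of the 16 arrays.

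Of the 64 member genes, 59 were tested, and 44 were above background on all 16 arrays. Stx11, Sv2c, Syt6, Cplx4 and Stxbp4 did not pass. A log2 level below is log2 of a probe's processed intensity over the 75th percentile of its array, so 0 means the intensity of that percentile, and levels of different probes are not compared.

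The results turn on a small number of 60-base probes, shown here as the array carries them, in the sense direction and with rn4 positions. The Snap25 and Vamp1 probes are the upstream ones of 2 probes for the gene. The others are the only probe of their gene, and were chosen because their differences were called after injury or after sham surgery. In the Snap25 probe the capitals mark a stop codon at its end, in the reading frame of its first base, which holds no earlier stop.
Snap25, chr3:124893320-124893379, plus strand: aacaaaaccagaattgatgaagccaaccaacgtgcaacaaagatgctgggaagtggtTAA
Vamp1, chr4:161337249-161337308, plus strand: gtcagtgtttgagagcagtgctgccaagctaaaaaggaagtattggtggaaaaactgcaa
Syn1, chrX:12555888-12555947, plus strand: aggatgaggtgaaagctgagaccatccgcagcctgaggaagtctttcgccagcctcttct
Rims1, chr9:21091375-21091434, minus strand: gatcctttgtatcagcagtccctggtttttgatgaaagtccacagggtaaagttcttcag
Syt13, chr3:77355793-77355852, plus strand: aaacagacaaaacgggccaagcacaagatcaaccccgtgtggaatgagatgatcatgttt
Syt7, chr1:212931696-212931755, plus strand: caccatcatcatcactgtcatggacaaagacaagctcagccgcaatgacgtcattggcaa
Exon and intron boundaries on rn4 were not used here, so the place of each probe in its transcript is given only relative to other probes of the gene.

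After injury, release genes were mostly lower than in SHAM rats. Snap25, Syn1, Rims1, Sv2b, Syt13 and Stx16 were lower, by 1.6-fold for Snap25 up to 2.88-fold for Rims1, and no member rose (limma, Benjamini-Hochberg adjusted p under 0.05). Over all tested probes, 6.46% were called lower and 2.92% higher, and the members' 6 of 59 lower and 0 of 59 higher stand beside those shares. At an unadjusted p under 0.05, 18 of 59 members and 26% of all probes differed. The median difference of the members was -0.28 on the log2 scale against -0.03 for all probes, with 42 members lower and 17 higher.

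The groups of members differed in how many read lower. Of 20 genes of the neuronal release set (neuronal SNAREs, complexins, RIMs, synapsins, SV2 proteins and fast calcium sensors), 18 were lower and 4 were called, and the median difference was -0.58. Of the 20 SNAREs of constitutive, endosomal and Golgi traffic, 11 were higher, 9 were lower and only Stx16 was called, around a median of 0.03. Of the 12 other synaptotagmins, 9 were lower and Syt13 was called (median -0.26), and of the 6 genes of the SNARE chaperone and tomosyn group 5 were lower and 0 called (median -0.41). In bulk tissue, fewer neurons and less RNA per neuron cannot be told apart. The summed level of the 10 neuron markers was 25.7 to 29.3 on TBI arrays and 32.2 to 35.1 on SHAM arrays, in units of the array's 75th percentile. Of these markers 9 of the 10 were lower, with Rbfox3 (-1.69) and Thy1 (-1.12) called. Rbfox3 was above background on only 7 of the 16 arrays, so the size of its difference is poorly measured. Dentate granule cell markers summed to 0.555 to 1.08 against 2.40 to 2.55, and oligodendrocyte markers to 55.3 to 113 against 116 to 119. Leukocyte markers summed to 2.29 to 9.04 on TBI arrays and 1.30 to 1.80 on SHAM arrays. Choroid plexus markers, from a tissue that borders the hippocampus, varied widely, with sums of 0.191 to 3.54 on TBI arrays and 4.9 to 122 on SHAM arrays, and the 4 tested ones were lower by a median of -3.25 with 0 called. The part of these cell types in the members' differences was not tested.

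Snap25, the plasma-membrane SNARE that supplies a pair of helices to the complex, had log2 levels of 3.7, 3.18 and 3.08 on the TBI arrays, 3.98 and 4.02 on the SHAM arrays and 3.38, 3.45 and 3.41 on the Naive arrays. Both SHAM arrays lay above all TBI arrays, TBI 1 lay nearest to them, and the other two TBI arrays lay below all Naive arrays. The difference was -0.67 (SE 0.19, limma adjusted p = 0.0414), and after quantile normalization it was -0.68 with an adjusted p of 0.0548. Other neuronal SNAREs did not pass the test. Vamp2, the main vesicular SNARE of forebrain terminals, stood at -0.54 (SE 0.18, limma adjusted p = 0.0812), Vamp1 at -0.40 and Stx1a at -0.39.

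Syn1, a phosphoprotein that ties vesicles to each other and to actin, gave -0.17, -1.75 and -1.57 in TBI, -0.14 and 0.50 in SHAM, and -0.87, -1.32 and -1.24 in Naive. TBI 1 came within a few hundredths of SHAM 1, while TBI 2 and 3 lay lowest of all. The difference of -1.34 (SE 0.37, limma adjusted p = 0.041) was larger than the spread within groups as the fit estimates it, and its adjusted p was 0.0626 after quantile normalization. Syn2 was at -0.58 (adjusted p = 0.272 by limma). Syn3, above background on both SHAM arrays but on no TBI array, was at least 1.36-fold lower, with an adjusted p of 0.0697 by limma.

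Rims1, the scaffold that recruits Rab3 and calcium channels to the active zone, read -2.93, -4.87 and -4.75 in TBI, -2.84 and -2.48 in SHAM and -4.37, -4.07 and -3.95 in Naive. The groups TBI and SHAM did not overlap, but TBI 1 was separated from SHAM 1 by less than from either of the other TBI arrays. The difference was -1.53 (SE 0.43, limma adjusted p = 0.0455, and 0.061 after quantile normalization). Rims2 was lower by less (-0.74, adjusted p = 0.2 by limma), and Rims3 pointed the other way at 0.58, with an adjusted p of 0.132 by limma that became 0.0448 after quantile normalization.

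Sv2b, one of the vesicle glycoproteins that also serve as receptors for botulinum toxin, had levels of -2.11, -2.41 and -2.30 in TBI against -1.48 and -1.53 in SHAM and -1.93, -1.67 and -1.62 in Naive. All TBI arrays were lower than all SHAM and all Naive arrays. The difference from SHAM was -0.77 (SE 0.19, limma adjusted p = 0.0255), and that from Naive was -0.54 (SE 0.17, limma adjusted p = 0.0855). Sv2a, the binding site of levetiracetam, was at -0.49 against SHAM (adjusted p = 0.17 by limma).

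Syt13, a synaptotagmin that lacks the residues for binding calcium, read -4.25, -4.66 and -5.40 in TBI, -3.49 and -3.36 in SHAM and -4.42, -4.43 and -4.40 in Naive. Stx16, a syntaxin of the trans-Golgi network rather than of the terminal, read -5.03, -4.84 and -5.31 in TBI, -3.55 and -4.06 in SHAM and -5.01, -4.85 and -5.23 in Naive. For both genes the SHAM arrays stood apart from the Naive and TBI arrays, and the latter overlapped. The differences between TBI and SHAM were -1.34 for Syt13 (SE 0.26, limma adjusted p = 0.0125) and -1.26 for Stx16 (SE 0.21, limma adjusted p = 0.00725). They were the calls that held when TBI 2 or TBI 3 was left out. With normexp background correction the sizes shrank to -0.18 for Syt13, -0.14 for Stx16 and -0.38 for Rims1, and none was called, while Syn1 kept -1.06, Snap25 -0.76 and Sv2b -0.63, also without a call.

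Other core genes were below the threshold. Syt1, the main calcium sensor of fast release, read -2.31, -3.78 and -3.67 in TBI and -2.10 and -2.08 in SHAM, a difference of -1.16 with an adjusted p of 0.0759 by limma. Syt7, a high-affinity sensor of slow and facilitated release, was at -1.73 with an adjusted p of 0.0656. Cplx1 was at -0.58 (adjusted p = 0.133), Cplx2 at -0.60 (0.267) and Syt2 at -0.16 (0.892), all by limma. Cplx3, a complexin best known from retina, was higher at 1.17, with an adjusted p of 0.223.

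Counted by array, 21 members had every TBI array below every SHAM array, where 24.2% of all probes did, and 4 had every TBI array above, where 17.6% of all probes did. Leaving out TBI 1 raised the calls to 18, leaving out TBI 2 or TBI 3 left 2, leaving out SHAM 2 left 1 and leaving out SHAM 1 left 0. Among the 18 calls without TBI 1, Stx2, Syt8 and Vamp5 were higher in TBI than in SHAM. With slide as a fixed term, which uses Naive as the only bridge, the 6 differences were -0.67 for Snap25, -1.20 for Syn1, -1.80 for Rims1, -0.94 for Sv2b, -1.35 for Syt13 and -0.96 for Stx16, and 0 members were called.

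**Figure D1:**
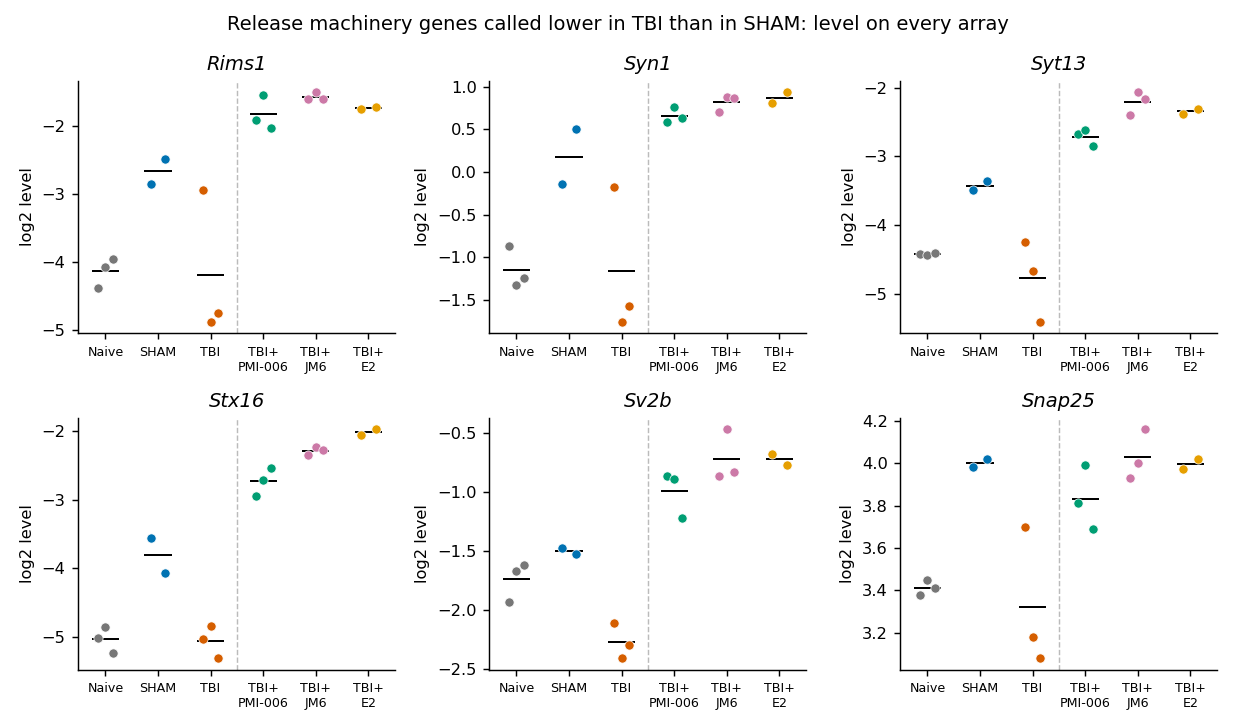
Log2 level (intensity over the array's 75th percentile, y axis) of the genes called lower in TBI than in SHAM, by group (x axis), with a point for each array and a bar at the group mean. Snap25 ran from 3.08 to 3.7 in TBI and lay at 3.98 and 4.02 in SHAM. TBI 1 lay nearest to the SHAM arrays for Syn1 and Rims1.

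SHAM rats themselves differed from Naive rats, in the opposite direction. Syt7, Syn3, Stxbp6, Syt1, Syn1, Stx16 and Syt13 were higher in SHAM, 7 of 59 members where 6.55% of all probes were called higher, and 0 members were lower, where 1.51% of all probes were. At an unadjusted p under 0.05, 15 members and 22.8% of all probes differed. This comparison and that of TBI with SHAM share the 2 SHAM arrays, so a high SHAM array moves both, and the mirrored values of Syn1, Stx16 and Syt13 are not separate evidence. Cell type markers moved here too. Thy1 of neurons (1.1), Mobp of oligodendrocytes (1.75), Gfap of astrocytes (2.01), P2ry12 of microglia (1.05) and Cd3e of leukocytes (4.93) were called higher. Rora, a thalamus marker, was called lower (-1.63). The neuron, astrocyte and microglia lists were mixed, with 4 of 10, 4 of 6 and 3 of 7 genes lower. Neuron markers had a median of 0.15 and summed to 32.2 to 35.1 in SHAM and 34.9 to 37.9 in Naive. Of the oligodendrocyte markers 6 of 7 were higher, with sums of 116 to 119 in SHAM and 85.7 to 121 in Naive, and the thalamus and choroid plexus markers had medians of -1.5 and 1.77. Their part in the members' differences was not tested.

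Syt7 read -3.37 and -3.34 in SHAM against -5.29, -7.07 and -6.36 in Naive, where it was not well above background on any array. The SHAM arrays were thus at least 5.39-fold higher (limma adjusted p = 0.00979). Syn3, the synapsin of early neuronal development, read -5.74 and -5.32 against -6.65, -8.35 and -8.01, likewise without a Naive array above background, and was at least 1.43-fold higher (limma adjusted p = 0.0256). For both genes the SHAM arrays lay above all Naive arrays, and the size of the gap rests on a level that the Naive arrays do not give.

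Syt1 stood at -2.10 and -2.08 in SHAM and at -3.87, -3.40 and -3.08 in Naive, a difference of 1.36 (SE 0.39, limma adjusted p = 0.048). Syn1 was higher by 1.32 (SE 0.37, limma adjusted p = 0.0467), Stx16 by 1.23 (SE 0.21, limma adjusted p = 0.00595) and Syt13 by 0.99 (SE 0.26, limma adjusted p = 0.0361). Stxbp6 (amisyn), which can occupy the Vamp position in a SNARE complex, was higher by 1.74 (SE 0.39, limma adjusted p = 0.0202), with 1 of the Naive arrays above background. In none of these did a SHAM array fall among the Naive arrays.

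Within slide 1 alone, where 2 SHAM arrays met 2 Naive arrays, the differences were 2.83 for Syt7, 1.97 for Syn3, 1.58 for Stxbp6, 1.55 for Syt1, 1.27 for Syn1, 1.13 for Stx16 and 0.99 for Syt13. Their direction could not differ here, because both SHAM arrays lay above every Naive array for all 7 genes. Rims1 (1.47, limma adjusted p = 0.0571) and Snap25 (0.59, limma adjusted p = 0.0767) were also higher in SHAM without passing, and Rims3 (-0.57) and Cplx3 (-1.10) lower without passing. In all, 19 members had every SHAM array above every Naive array, where 25.1% of all probes did, and 5 had every SHAM array below, where 14.4% did. Leaving out 1 array at a time left between 0 and 3 calls, with 0 without SHAM 1, 1 without SHAM 2, 2 without Naive 3 and 3 without Naive 1 or Naive 2.

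Against Naive rats, injured rats differed in fewer release genes. Cplx1 and Syt17 were lower, 2 of 59 where 1.73% of all probes were called lower, and 0 members were higher, where 2.98% of all probes were. The members' median was -0.07 against 0.04 for all probes, and 14 members had an unadjusted p under 0.05 where 20.9% of all probes did. This comparison shares the TBI arrays with the one against SHAM.

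Cplx1 read 2.78, 2.70 and 2.25 in TBI and 3.21, 3.43 and 3.14 in Naive, without overlap. The difference was -0.68 (SE 0.16, limma adjusted p = 0.0366), and it was -0.56 within slide 2, where 3 TBI arrays met 1 Naive array. Only 1 SHAM array had a usable spot of this probe, at 3.16. The other Cplx1 probe, above background on all 16 arrays, stood at -0.54 against Naive (SE 0.22, adjusted p = 0.179 by limma). Neither that probe nor the mean of the gene's probes was called. Syt17 (B/K protein), a C2-domain protein named as a synaptotagmin, read -0.95, -0.43 and -1.18 in TBI and 0.69 and 0.56 on the Naive arrays with a usable spot, a difference of -1.48 (SE 0.36, limma adjusted p = 0.039). Its SHAM arrays, at -0.67 and -0.64, lay within the TBI range.

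Other vesicle genes were close to the threshold. Vamp2 read 2.09, 1.74 and 1.71 in TBI against 2.48, 2.70 and 2.20 in Naive (-0.61, limma adjusted p = 0.0523). Sv2a read 1.13, 0.69 and 0.60 against 1.80, 1.37 and 1.28 (-0.68, limma adjusted p = 0.0643). Neither gene's groups overlapped. Genes called lower against SHAM were near Naive values: the differences from Naive were -0.02 for Syn1, -0.06 for Rims1, -0.09 for Snap25, -0.03 for Stx16 and -0.35 for Syt13, and Sv2b was the exception.

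In 9 members every TBI array lay below every Naive array, where 10.6% of all probes did so, and in 1 member every TBI array lay above, where 12.7% did. Leaving out TBI 1 gave 8 calls, with Cplx1, Rims1, Sv2a, Syn2, Syt10 and Vamp2 lower and Stx2 and Vamp5 higher in TBI. Leaving out Naive 3 gave 1 call, Vamp2, without Cplx1 or Syt17, and leaving out any other array gave 0.

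**Figure D2:**
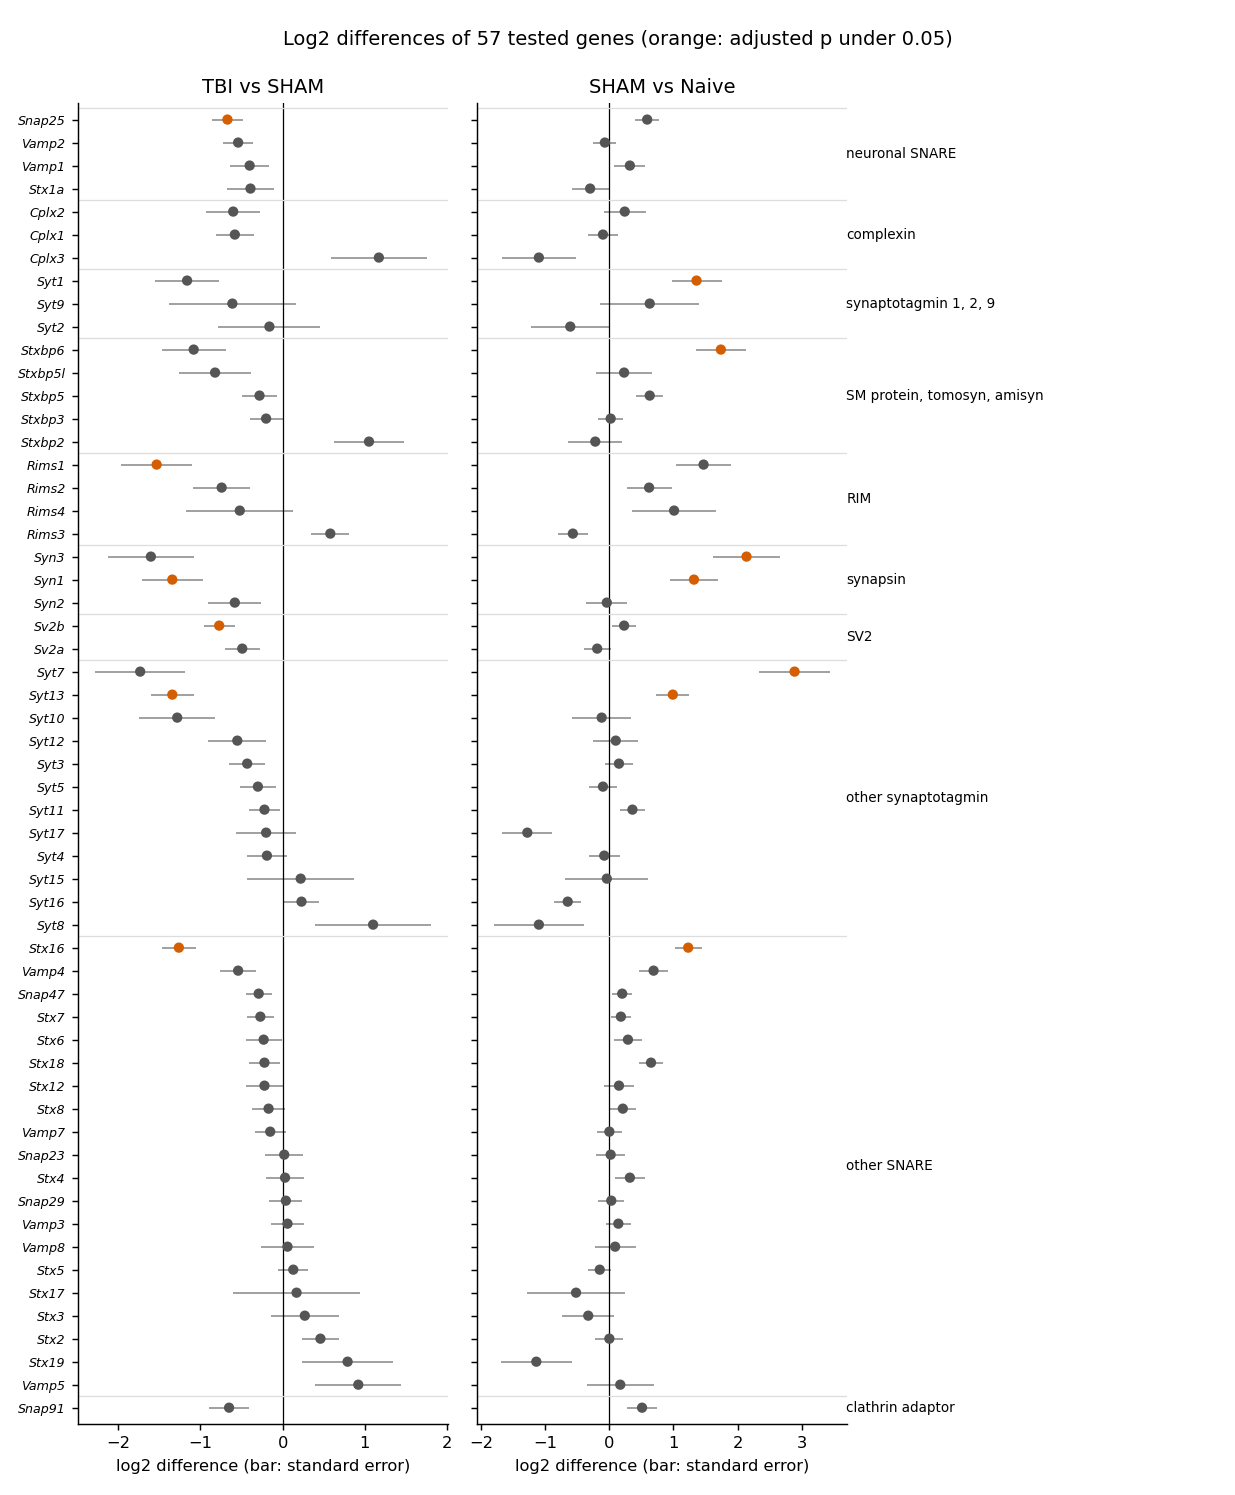
Log2 difference (x axis, with its standard error as a bar) of 57 tested genes (y axis, grouped by role), in one panel for TBI against SHAM and one for SHAM against Naive, with genes at an adjusted p under 0.05 in orange. 40 of them were lower in TBI than in SHAM, and over all 59 tested members 39 were higher in SHAM than in Naive.

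The difference between groups varied with where a gene's probe lay. The array carries more than 1 probe for 10 members, and the upstream probe, nearer the 5′ end of the transcript by genome position and strand, separated TBI from SHAM more than the downstream one in most of them. With upstream probes in place of the brightest ones, Snap25 was again called lower in TBI than in SHAM, while Stx16 was not. Rims1, Sv2b, Syn1 and Syt13 have 1 probe each, so the exchange could not change their calls. Cplx1, Syt4 and Vamp1 were called in addition. The brightest probe of these additional genes is a downstream one.

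For Snap25, whose upstream probe shown above ends at the stop codon and lies 456 bases upstream of the other, the upstream levels were 2.60, 1.73 and 1.67 in TBI, 3.15 and 3.21 in SHAM and 1.99, 1.91 and 1.93 in Naive. Its difference between TBI and SHAM was -1.18 (SE 0.24, limma adjusted p = 0.0144), against -0.67 for the downstream probe. By both probes, SHAM lay highest and TBI 2 and 3 lowest within the first session.

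For Vamp1, whose probes lie 3114 bases apart, the upstream probe gave -1.71, -3.17 and -2.91 in TBI, -1.17 and -1.14 in SHAM and -2.71, -2.45 and -2.55 in Naive, a difference between TBI and SHAM of -1.44 (SE 0.33, limma adjusted p = 0.0217). The downstream probe gave 1.98, 1.42 and 1.44 in TBI and 2.11 and 1.90 in SHAM, a difference of -0.40 (adjusted p = 0.324 by limma) with TBI 1 between the SHAM arrays. Syt4, a synaptotagmin of neuropeptide vesicles, differed by -1.50 upstream (SE 0.39, limma adjusted p = 0.0345) and by -0.19 downstream.

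SHAM against Naive showed the same dependence on position. The upstream probe rose by 1.24 for Snap25 (SE 0.24, limma adjusted p = 0.0114), by 1.41 for Vamp1 (SE 0.33, limma adjusted p = 0.0227) and by 1.80 for Syt4 (SE 0.39, limma adjusted p = 0.0175). The downstream probes of Vamp1 and Syt4 stood at 0.32 and -0.08 and were not called.

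This dependence was not particular to release genes. Among 2460 genes with at least 2 tested probes within 100 kb, the median difference between TBI and SHAM was -0.29 for upstream probes and -0.04 for downstream probes, and the upstream probe was the lower one in 72% of genes. Of the 9 members in that set it was lower in 7, with medians of -1.14 and -0.19. Over 2467 such genes, the median amount by which the downstream log2 level exceeded the upstream one was 1.44, 1.41 and 1.47 on the Naive arrays, 1.08 and 1.05 on the SHAM arrays and 1.23, 1.38 and 1.42 on the TBI arrays. On the arrays of treated rats it was 0.76 to 0.89. The 2 SHAM arrays had the smallest gap of the first session, TBI 1 came next, and every array of the second session had a smaller gap still. This gap moved with the members' differences, and its part in them was not tested.

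**Figure D3:**
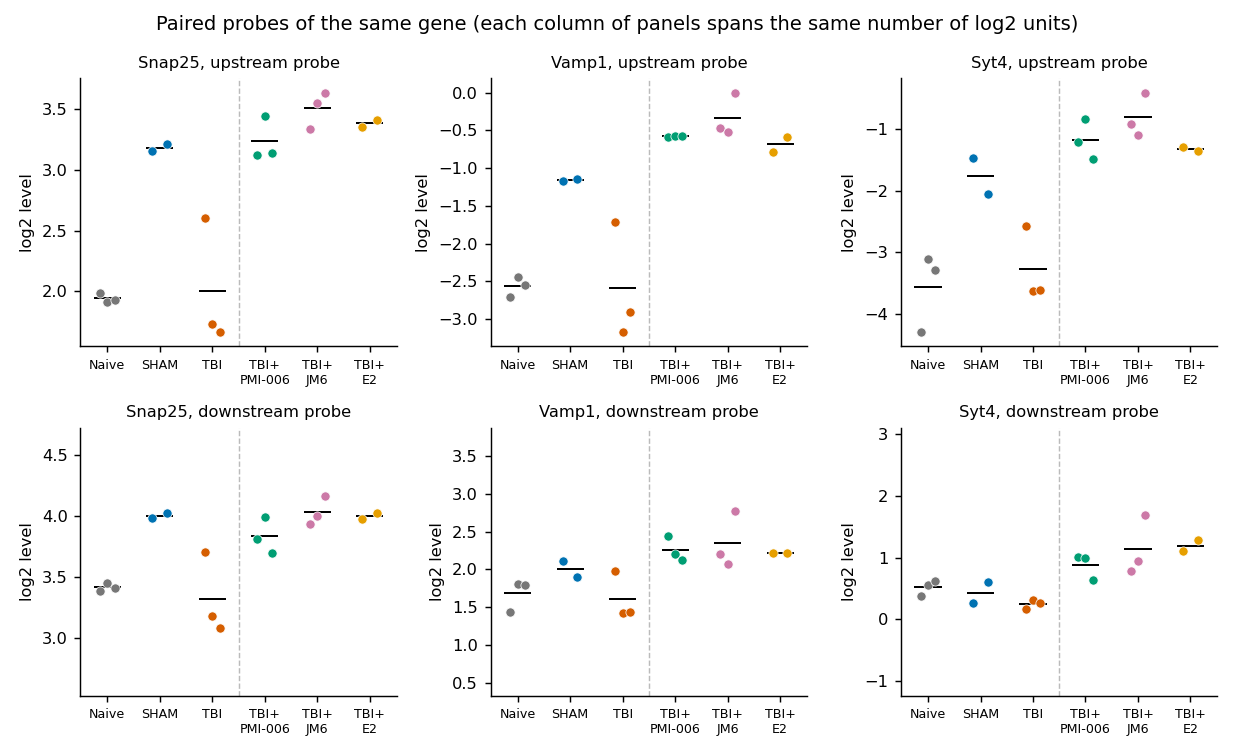
Log2 levels (y axis) of the upstream and downstream probes of Snap25, Vamp1 and Syt4 by group (x axis), with a point for each array and a bar at the group mean. In Vamp1 the upstream probe ran from -3.17 to -1.71 in TBI and lay at -1.17 and -1.14 in SHAM, while the downstream probe of TBI 1, at 1.98, fell between the SHAM arrays.

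In treated injured rats nearly every member read higher than in untreated injured rats, as did nearly every probe of the array. For TBI+JM6, 42 of 59 members were called higher, where 69.9% of all probes were, and 0 lower, where 0.175% were. For TBI+PMI-006, 38 were called higher (56.7% of all probes) and 0 lower (0.0482%). For TBI+E2, 44 were called higher (70.2%) and 0 lower (0.092%). The members' medians were 1.0, 0.88 and 1.13, against 0.99, 0.79 and 1.08 for all probes, so the list as a whole moved with the array. These comparisons share the 3 TBI arrays and cross the scanning sessions, and drug and session cannot be told apart. Differences are therefore also given relative to the median of all probes and after quantile normalization, which forces all arrays to one distribution.

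After quantile normalization, 9 members were higher and 6 lower in TBI+JM6, where 13.9% and 13.3% of all probes were. In TBI+PMI-006 it was 9 and 2, where 9.96% and 9.19% of all probes were, and in TBI+E2 it was 8 and 5, where 10.4% and 9.98% were. In all 3 treatments the members called higher included Syn1, Syn2, Rims1, Sv2b, Syt13, Stx16 and Stx2, and Stx18 was called in TBI+JM6 and TBI+PMI-006. Stx8, an endosomal syntaxin, and Vamp3, the Vamp of recycling endosomes, were called lower in all 3.

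Syn1 read 0.70, 0.88 and 0.86 in TBI+JM6, 0.58, 0.76 and 0.63 in TBI+PMI-006 and 0.81 and 0.93 in TBI+E2. Every treated array lay above every array of the first session. The difference of TBI+JM6 from TBI was 1.97 (SE 0.33, limma adjusted p = 0.000258), which is 0.98 above the median of all probes and 1.28 after quantile normalization (limma adjusted p = 0.0151). Syn2 was higher by 2.07 (1.34 after quantile normalization, limma adjusted p = 0.00553).

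Rims1 read -1.60, -1.50 and -1.60 in TBI+JM6, -1.90, -1.54 and -2.02 in TBI+PMI-006 and -1.74 and -1.71 in TBI+E2, all above the SHAM arrays. Its differences from TBI were 2.62, 2.37 and 2.46, and 1.53, 1.43 and 1.28 after quantile normalization. Sv2b ran from -1.22 to -0.47 over the 8 treated arrays, above all arrays of the first session, with quantile-normalized differences from TBI of 0.71, 0.58 and 0.67. Against SHAM, the higher levels depended on the scaling. After quantile normalization the mean of Syn1 was 1.53 in SHAM and 1.6, 1.59 and 1.64 in TBI+JM6, TBI+PMI-006 and TBI+E2. That of Rims1 was -1.18 in SHAM and -0.93, -1.02 and -1.18, and that of Sv2b was -0.08 in SHAM and -0.03, -0.15 and -0.07.

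Snap25, Vamp1, Stx1a and Vamp2 rose by less than the array's median, and their direction turned with the scaling. In TBI+JM6, Snap25 was higher by 0.71 (SE 0.17, limma adjusted p = 0.00257), Vamp1 by 0.74, Stx1a by 0.67 and Vamp2 by 0.55, all called. Relative to the median of all probes these were -0.28, -0.25, -0.32 and -0.44, and none was called after quantile normalization, where the largest was 0.29. These genes had mean levels above 0, and all probes with a mean level of 0 or more had a median of 0.45 in TBI+JM6. When the scaling percentile used every probe, dim ones included, these genes were negative, from -0.24 to -0.05. Snap25 read 3.93, 4.0 and 4.16 in TBI+JM6, 3.81, 3.99 and 3.69 in TBI+PMI-006 and 3.97 and 4.02 in TBI+E2. Its TBI+JM6 and TBI+E2 arrays lay around the SHAM values, and TBI+PMI-006 3 fell below TBI 1.

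Cplx1 stood at 0.62 in TBI+JM6, which is -0.37 relative to all probes, and turned to -0.17 with the percentile over every probe. Cplx2 stood at 1.05, which is 0.06 relative to all probes, and stayed above 0 at 0.27 with that percentile and 0.54 after quantile normalization. Stx8, Vamp3 and Stxbp3, a syntaxin-binding protein of exocytosis outside neurons, stood near 0 at -0.18, 0.07 and -0.01 and were not called. Syt5 was near 0 in TBI+E2 (-0.03).

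By the fitted difference, the largest called rises were in genes of low level. The TBI level is poorly measured for Rims4 and Syt8, with 1 and 2 TBI arrays above background. It is also poorly measured for Stxbp5l, Syt9, Syt15 and Syn3, with 0. Rims4, Stxbp5l, Syt8 and Syt9 passed the filter on dim signal only through groups of treated rats, and Syt15 only through TBI+E2. Their place among the largest rises is therefore partly set by the filter. Stx16, Rims1 and Syt13 were above background on all 16 arrays. In TBI+JM6 they were Rims4 (3.12, SE 0.58, limma adjusted p = 0.000516), Stxbp5l, a tomosyn that competes for syntaxin (at least 3.24-fold), Stx16 (2.77), Rims1 (2.62) and Syt13 (2.56). In TBI+PMI-006 they were Rims4 (2.88), Syt9 (at least 3.67-fold), Stxbp5l (at least 2.16-fold), Rims1 (2.37) and Stx16 (2.33). In TBI+E2 they were Syt15 (at least 4.12-fold), Rims4 (3.62), Stx16 (3.05), Syt8 (2.92) and Syn3 (at least 3.34-fold).

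Rims4, a short RIM without the zinc finger, read -8.19, -5.51 and -7.01 in TBI, where 1 array was above background, and -4.05, -3.83 and -3.49 in TBI+JM6. Its fitted rise rests on 2 TBI arrays not well above background, and it was 1.31 with normexp (limma adjusted p = 0.124) and 1.53 after quantile normalization (limma adjusted p = 0.118), neither of them a call. Split by the mean level over all arrays, the 21 members at 0 or more had a median difference of 0.55 in TBI+JM6, the 19 from -3 to 0 had 1.13 and the 19 under -3 had 1.89. All probes in the same ranges had 0.45, 0.76 and 1.79. The size of the rise thus followed the level of the probe in the members as over the whole array.

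**Figure D4:**
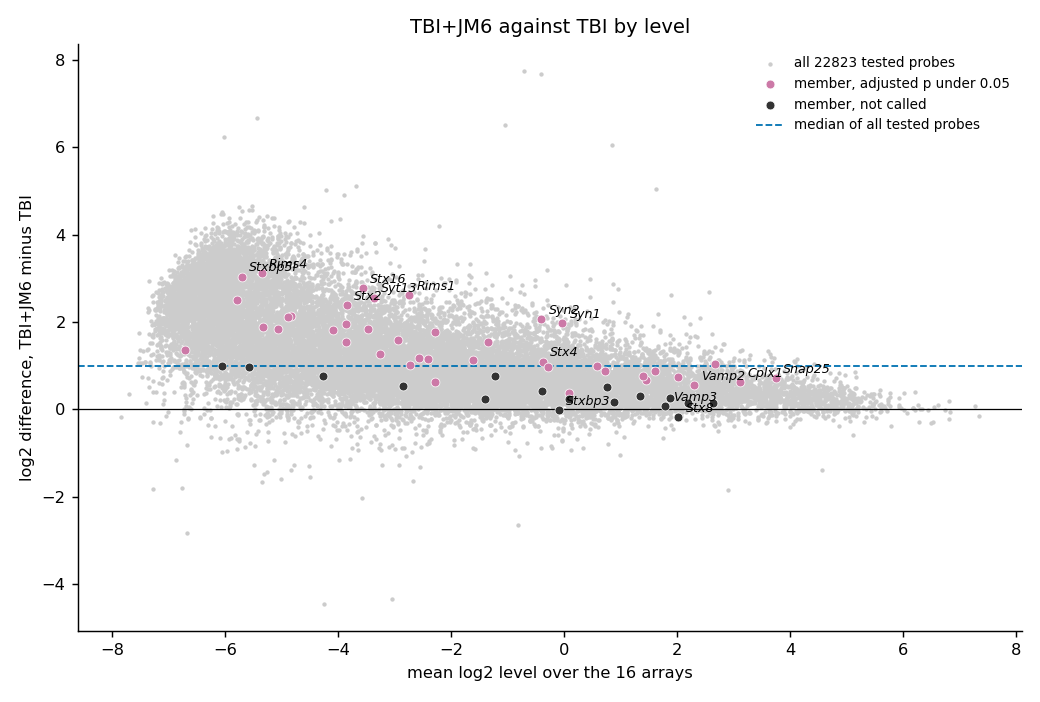
Log2 difference of TBI+JM6 from TBI (y axis) against the mean log2 level over the 16 arrays (x axis) for all tested probes (grey) and 57 tested members (coloured by whether they were called), with the median of all probes dashed at 0.99. The difference grows as the level falls, from a members' median of 0.55 at levels of 0 or more to 1.89 at levels under -3.

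The treatments could be compared with each other inside the second session. All TBI+PMI-006 arrays lay on slide 3 and both TBI+E2 arrays on slide 4, so this pair shared no slide, and TBI+JM6 had 1 array on slide 3 and 2 on slide 4. No member was called between any pair of them: 0 of 59 for TBI+JM6 against TBI+PMI-006 (0.0131% of all probes called), for TBI+JM6 against TBI+E2 (0.0175%) and for TBI+PMI-006 against TBI+E2 (0.11%). At an unadjusted p under 0.05, limma gave 4, 2 and 5 of 59 members, where 8.85%, 2.81% and 15.0% of all probes differed. The methods' t-test gave 2, 3 and 8 members, with no share over all probes at hand to set beside them. The members' differences ran from -1.53 (Syt9) to 1.35 (Stx19) for TBI+JM6 against TBI+PMI-006, from -2.44 (Syt15) to 0.50 against TBI+E2, and from -1.93 (Syt15) to 0.27 for TBI+PMI-006 against TBI+E2. Syt15 read -7.25, -6.96 and -4.88 in TBI+JM6, -5.27, -6.83 and -5.45 in TBI+PMI-006 and -3.31 and -4.54 in TBI+E2. It passed the filter on dim signal only through TBI+E2, where it was highest, and Syt9 only through TBI+PMI-006 and TBI+E2. Stx16 had the lowest adjusted p of the last comparison, at 0.155 by limma with a difference of -0.72. Within slides, Stx16 in TBI+JM6 was 0.37 above TBI+PMI-006 on slide 3 and differed by -0.25 from TBI+E2 on slide 4. The doses and routes differ, and with 2 or 3 arrays per treatment, the absence of a call does not show that the treatments act alike.

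**Figure D5:**
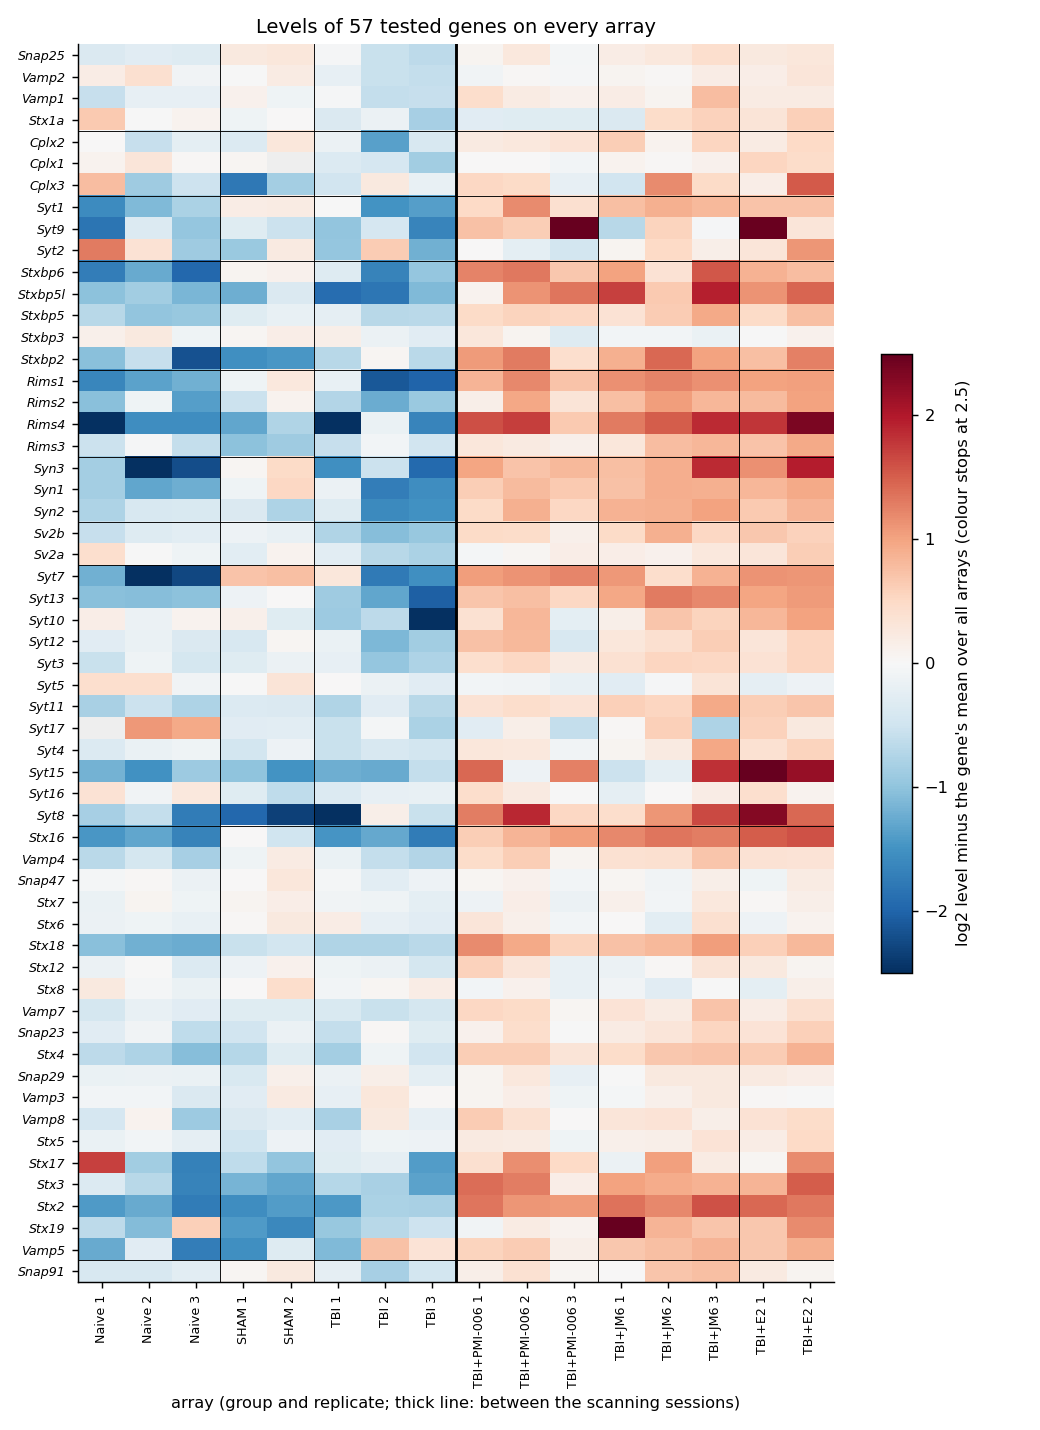
Log2 level of 57 tested genes (y axis, by role) on each of the 16 arrays (x axis, by group and replicate), as the difference from the gene's mean over all arrays, with colour ending at 2.5. The arrays of treated rats, to the right of the thick line between sessions, are higher for most genes. In the first session the SHAM arrays and TBI 1 lie above the other TBI arrays for Syn1, Rims1 and Syt1.

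Other genes of the release cycle leaned the same way. A list of 73 priming, active zone, vesicle, transporter, endocytosis and SNARE-recycling genes outside the member rule had 70 tested genes. Against SHAM, 9 were called lower and 0 higher in TBI, where 6.46% and 2.92% of all probes were, and the median was -0.35 beside -0.03 for all probes, with 52 lower. The largest of these differences were in Slc17a7, the vesicular glutamate transporter of cortical and hippocampal excitatory terminals (-1.43, SE 0.34, limma adjusted p = 0.0234), and Svop, a vesicle protein related to SV2 (-1.42, SE 0.34, limma adjusted p = 0.0263). Rab3a and Rab3c, the vesicle GTPases that bind RIM proteins, the primer Unc13b, the active zone liprins Ppfia3 and Ppfia4, the vesicle protein Syngr3 and the endocytic GTPase Dnm1 made up the rest.

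SHAM rats had 8 of these 70 genes higher than Naive and 2 lower, where 6.55% and 1.51% of all probes were. Doc2b, a calcium sensor of spontaneous release, was higher by 1.96 (SE 0.55, limma adjusted p = 0.0473) and Svop by 1.91 (SE 0.34, limma adjusted p = 0.00809), while Cadps, a priming factor of dense-core vesicles, differed by -0.78 (limma adjusted p = 0.0406) and Synj1, a lipid phosphatase of vesicle uncoating, by -0.74 (limma adjusted p = 0.0439). Between TBI and Naive, Rab3c (-0.88) and Syngr3 (-0.79) were lower and Scamp2 (1.28) and Lin7c (1.0) higher. In treated rats against TBI, 57, 48 and 53 of the 70 were called higher with TBI+JM6, TBI+PMI-006 and TBI+E2, led by Doc2b and Apba1, where 69.9%, 56.7% and 70.2% of all probes were, and 0 lower. The medians after quantile normalization were 0.15, 0.06 and 0.09. No gene of the list was called between treatments.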

How the data were processed

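Total RNA of 16 hippocampi was amplified from its poly(A) fraction, labelled with Alexa-555 and hybridised to 1-colour Agilent arrays. The authors extracted the scans with Agilent Feature Extraction 9.5.3.1 and deposited background-corrected processed intensity values per spot, with probe positions on rn4. The deposited matrix of the series holds 1 linear ratio per probe to the 75th percentile, with the same distribution on every array, and was used only as an alternative. The labels name 2 amplification kits as alternatives without saying which rat had which, so a kit effect was not tested.

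Intensities were divided by the 75th percentile of the array's probes well above background, and the log2 ratios made from the deposited values were averaged over spots of a probe. A probe was tested when it was well above background on all arrays of some group. Groups were compared with limma 3.58.1 in R 4.3.3, in 1 fit of all 16 arrays and 6 groups with 10 residual degrees of freedom, with Benjamini-Hochberg adjustment over all tested probes and a threshold of 0.05. Where a group had no array above background, "at least" folds use a bound for each of its arrays. The bound is the lowest signal well above background on that array, or the gene's own level where that was higher. The study's methods state 3 rats per group, and 2 arrays each of SHAM and TBI+E2 were analysed here. The number of arrays limits the precision, and p-values measure only the spread between them.

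The members, gene lists and marker lists were chosen with earlier results of these data known. Named with values were a list of core release genes, each member called where 10 or fewer were called, otherwise the 5 largest called rises or falls without overlap, and of other release genes the 2 largest in each direction. The fit was tested on simulated data with known differences in the TBI arrays. At a log2 size of 1 it called 22.4% of them with the right sign against SHAM and 28.4% against Naive. At a size of 2 it called 73.1% and 79.1%. The simulation changed 67 of 21895 probes at each of these sizes, fewer than were called in the data. Adjusted p-values depend on how many probes differ. Differences of the size seen here can thus be missed, at a rate that the simulation does not give. Alternatives covered background correction, scaling, the dim-probe filter, the deposited matrix, the methods' t-test, slide and replicate blocks, GC content, the probe taken per gene, and leaving out each array. The choice of the upstream or downstream probe was added after seeing the data. Values of 2 tested members are not reported here, nor drawn, though counts over the members include them.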

Additional observations from a re-analysis of the deposited data

How the results depend on the processing

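Replicate numbers do not pair the rats: deviations of same-numbered arrays correlated from -0.19 to 0.18. With the replicate number as a block, 3 members were called between TBI and SHAM, 4 between SHAM and Naive, 2 between TBI and Naive, and 41, 39 and 43 for TBI+JM6, TBI+PMI-006 and TBI+E2 against TBI. For TBI against SHAM (6 called), 0 were called with normexp background correction, the methods' t-test after adjustment (6 at an unadjusted p under 0.05), limma on the compared groups alone or slide as a fixed block, 3 without the dim-probe filter and 11 with slide as a random block. For TBI against Naive (2), 0 were called with normexp, no filter, the t-test (8 unadjusted), the groups alone or slide as a fixed block, 1 with the mean of a gene's probes or its upstream probe, 4 with the authors' matrix or slide as a random block, and 6 with the 75th percentile over all probes. For SHAM against Naive (7), 0 were called with normexp, the t-test (15 unadjusted), the groups alone or slide as a fixed block, 3 with quantile normalization, and 4 with no filter or the authors' matrix. For TBI+JM6, TBI+PMI-006 and TBI+E2 against TBI (42, 38 and 44), normexp gave 19, 9 and 19, quantile normalization 15, 11 and 13, the authors' matrix 15, 11 and 14, the t-test 19 for TBI+PMI-006 and 18 for TBI+E2, and the percentile over all probes 26 for TBI+E2. Leaving out 1 array gave 0 to 18 calls for TBI against SHAM, 0 to 8 for TBI against Naive, 0 to 3 for SHAM against Naive, 38 to 42 for TBI+JM6, 31 to 39 for TBI+PMI-006 and 31 to 43 for TBI+E2. No called difference among Naive, SHAM and TBI changed sign in the settings run. Differences that were not called did, such as Rims2 against SHAM (-0.74, but 0.04 with normexp and 0.06 with slide as a fixed block) and Rims1 in TBI against Naive (-0.06, but 0.54 with normexp). Against TBI, signs turned with the percentile over all probes, in TBI+JM6 for Cplx1 (-0.17), Snap25 (-0.08), Stx1a (-0.12), Sv2a (-0.02), Vamp1 (-0.05) and Vamp2 (-0.24), in TBI+PMI-006 for Cplx1 (-0.12), Rims3 (-0.06), Snap25 (-0.14), Sv2a (-0.01) and Vamp2 (-0.22), and in TBI+E2 for Snap25 (-0.16), Vamp1 (-0.22) and Vamp2 (-0.14). They also turned for Vamp2 in TBI+JM6 (-0.00086) with quantile normalization, and in TBI+PMI-006 for Rims3 with quantile normalization (-0.29) and the authors' matrix (-0.24) and Stxbp5l with normexp (-0.08). The causes were not tested. Slide as a fixed block was not run across sessions, where slide and group cannot be told apart, and 0 members were called between treatments in each setting run. Dim members, among them Rims4, Syt15 and Syn3, are limited by signal over background.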
